A study of Mus musculus with 117 samples.

Results

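Hepatocyte chromatin states were compared between CAST/EiJ, an inbred strain derived from wild Mus musculus castaneus, and PWK/PhJ, an inbred strain derived from wild Mus musculus musculus. The comparison covered autosomes 1 to 19 in bins of 200 bp, of which there were 12313718. In each bin the state of CAST/EiJ was set beside that of PWK/PhJ. States 1 to 3 are called active here, states 13 and 14 silent, and states 4 to 12 intermediate. These are working names, and no histone mark was assigned to a state. A stretch of at least 1 kb that was active throughout in one strain and silent throughout in the other is called a switched segment. There were 3882 such segments. In 2435 of them CAST/EiJ was active and PWK/PhJ silent (CAST/EiJ-active segments), and in 1447 PWK/PhJ was active and CAST/EiJ silent (PWK/PhJ-active segments). Together they touched 1568 of 20665 autosomal protein-coding genes.

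The material of both strains was hepatocytes, the cells that do most of the liver's metabolic work, taken from females aged 12 weeks. Chromatin immunoprecipitation sequencing covered 4 histone marks, H3K27ac, H3K27me3, H3K4me1 and H3K4me3. Each strain had 3 mice with 1 library per mark and 1 input library without antibody. That made 26 libraries for the pair, out of 117 in the series, in which 9 inbred strains were treated alike. No treatment or engineered allele is named in the labels for either strain. The 13 libraries of a strain are combined in 1 deposited segmentation into 14 states, so there was no replicate of either strain's states. No p-value is given for CAST/EiJ against PWK/PhJ, and the other 7 strains give the only further values at each place. Read depth is unknown.

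Histone marks are chemical tags on the proteins that package DNA. H3K4me3 with H3K27ac is typical of active promoters and H3K4me1 with H3K27ac of active enhancers, the distal elements that raise transcription of a gene from a distance. H3K27me3 is laid down by Polycomb complexes at genes held silent, and much of any genome carries none of these marks. Enhancers are known to differ between individuals and species more readily than promoters do.

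The working names were checked at transcription start sites of landmark genes, within 1 kb to each side. Around 15 genes of secreted proteins and enzymes made at high level by hepatocytes, 94.7% of the bins were active in CAST/EiJ and 100% in PWK/PhJ. State 2, which led most of the segments described below, held only 0.957% and 2.39% of these bins. The check of the active class therefore bears on states 1 and 3. Around 14 regulators of embryonic development none was active in either strain, and state 13 held 45.0% in CAST/EiJ and 48.8% in PWK/PhJ. State 14 held 0%, so most bins around these regulators were intermediate rather than silent. Around 14 Kupffer cell and leukocyte markers 88.5% of the bins were silent in each strain, and 4.85% were active in CAST/EiJ against 9.09% in PWK/PhJ. Around 13 markers of liver endothelial cells 27.8% were active in CAST/EiJ and 43.9% in PWK/PhJ, and around 13 markers of stellate and bile duct cells 17.0% and 13.9%. The part of other cell types in the segments described below was not tested.

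Few promoter windows lay inside a switched segment. Of 20085 promoter windows in RefSeq's table (250 bp before to 50 bp after a start site, build GRCm38.p6, covering 18 of the autosomes), 18 lay wholly inside a CAST/EiJ-active segment, which is 0.0896%. A further 16 lay wholly inside a PWK/PhJ-active segment, which is 0.0797%. Of all autosomal bins, 0.364% were active in CAST/EiJ and silent in PWK/PhJ and 0.214% the reverse, in stretches of any length. A window had to lie wholly inside a segment, so these shares are not measured alike. Whether promoters were switched less often than other places was not tested. These windows belonged to 17 and 13 genes. By comparison, 8926 windows were active in both strains and 6054 were silent in both. The sequences below belong to the 3 genes of each direction with the longest segment over a promoter, and Gapdh, a glycolytic enzyme gene active in both strains, is shown beside them. They are the reference sequence, not that of CAST/EiJ or PWK/PhJ. Capitals mark each CG dinucleotide (CpG), the site of DNA methylation in mammals, which is dense in the promoters of broadly expressed genes.
Clec2h (chr6:128662135-128662434, plus strand): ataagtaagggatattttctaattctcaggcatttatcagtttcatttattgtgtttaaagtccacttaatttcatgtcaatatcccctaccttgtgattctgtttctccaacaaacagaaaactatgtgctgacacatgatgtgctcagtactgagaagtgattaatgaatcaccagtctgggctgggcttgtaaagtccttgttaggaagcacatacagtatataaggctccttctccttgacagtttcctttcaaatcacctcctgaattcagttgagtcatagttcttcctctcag
Zfp605 (chr5:110109842-110110141, plus strand): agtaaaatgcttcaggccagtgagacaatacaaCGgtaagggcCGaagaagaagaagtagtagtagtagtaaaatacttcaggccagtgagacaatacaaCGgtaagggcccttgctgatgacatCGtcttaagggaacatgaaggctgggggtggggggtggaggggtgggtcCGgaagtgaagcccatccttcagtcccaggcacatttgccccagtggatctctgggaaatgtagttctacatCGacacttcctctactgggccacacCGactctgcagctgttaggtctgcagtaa
Ccn6 (chr10:39163745-39164044, minus strand): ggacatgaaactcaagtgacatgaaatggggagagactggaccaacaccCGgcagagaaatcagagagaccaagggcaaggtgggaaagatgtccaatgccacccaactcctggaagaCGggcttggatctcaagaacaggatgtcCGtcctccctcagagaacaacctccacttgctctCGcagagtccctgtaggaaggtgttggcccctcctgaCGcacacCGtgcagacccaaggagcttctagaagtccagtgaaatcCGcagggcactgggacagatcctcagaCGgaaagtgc
Ffar2 (chr7:30821090-30821389, minus strand): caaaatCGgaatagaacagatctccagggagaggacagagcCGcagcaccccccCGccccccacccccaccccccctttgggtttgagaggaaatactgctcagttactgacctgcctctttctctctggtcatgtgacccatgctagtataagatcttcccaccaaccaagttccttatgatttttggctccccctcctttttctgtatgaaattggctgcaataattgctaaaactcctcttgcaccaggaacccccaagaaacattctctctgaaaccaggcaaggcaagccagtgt
Pnpla5 (chr15:84123126-84123425, minus strand): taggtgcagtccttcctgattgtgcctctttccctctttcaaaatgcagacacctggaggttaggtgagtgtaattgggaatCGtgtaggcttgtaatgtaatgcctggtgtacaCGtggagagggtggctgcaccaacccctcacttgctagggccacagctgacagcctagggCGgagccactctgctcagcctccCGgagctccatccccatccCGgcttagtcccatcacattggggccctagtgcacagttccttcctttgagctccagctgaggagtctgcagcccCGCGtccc
Epp13 (chr7:6255672-6255971, plus strand): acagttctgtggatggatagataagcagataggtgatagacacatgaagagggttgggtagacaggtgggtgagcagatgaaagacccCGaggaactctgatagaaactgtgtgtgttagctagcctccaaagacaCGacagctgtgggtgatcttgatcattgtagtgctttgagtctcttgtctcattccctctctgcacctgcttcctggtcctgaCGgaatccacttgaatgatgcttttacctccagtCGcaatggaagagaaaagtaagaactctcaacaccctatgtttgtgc
Gapdh (chr6:125165724-125166023, minus strand): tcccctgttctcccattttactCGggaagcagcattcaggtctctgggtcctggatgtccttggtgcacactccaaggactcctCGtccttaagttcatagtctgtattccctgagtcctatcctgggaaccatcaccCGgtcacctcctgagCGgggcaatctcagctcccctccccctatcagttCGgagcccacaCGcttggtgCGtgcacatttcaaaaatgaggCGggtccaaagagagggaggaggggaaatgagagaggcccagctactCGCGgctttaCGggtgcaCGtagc

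The Clec2h window, of a C-type lectin gene, holds 0 CpG in 300 bp. The windows of Zfp605, a zinc finger gene, and Ccn6, of the matricellular CCN family, hold 7 and 8. On the PWK/PhJ-active side, Ffar2, a receptor for short-chain fatty acids, has 3 CpG in the window shown, Pnpla5, a lipase of the patatin family, has 7, and Epp13 has 4. Gapdh has 12. Over all windows inside CAST/EiJ-active segments the median was 4 CpG, and over those inside PWK/PhJ-active segments 6.5. The median was 22 over windows active in both strains and 3 over windows silent in both. An observed-to-expected CpG ratio above 0.6, a common mark of CpG-rich promoters, was found in 5.56% and 12.5% of the switched windows, in 75.7% of those active in both strains and in 8.41% of those silent in both. In CpG content the switched windows were therefore closer to promoters silent in both strains than to promoters active in both. The exceptions above that ratio were Spata22 on the CAST/EiJ side and Rnf212 and Nox4 on the PWK/PhJ side. Nox4 encodes an NADPH oxidase.

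Letters of known motifs were searched in the same windows on both strands. AGGTCA, a half-site of nuclear receptors, stood in 6 of the 18 CAST/EiJ-active windows (33.3%) and in 5 of the 16 PWK/PhJ-active windows (31.3%), against 14.7% of all windows, 12.9% of those active in both strains and 18.1% of those silent in both. TATAAA stood in 16.7% and 18.8%, against 12.7% of all windows, 6.44% of those active in both strains and 24.5% of those silent in both. CCGGAAG, bound by ETS factors, stood in 5.56% and 0%, against 11.9%, 21.2% and 2.21% of the same sets. TGANTCA, bound by AP-1, stood in 2 and 3 windows (11.1% and 18.8%, against 7.05%, 4.83% and 11.4%), and the E-box CACGTG in 0 and 3 (0% and 18.8%, against 7.89%, 10.8% and 4.13%). The further motifs TGTTTAC (FOXA), TTGCNNCAA (CEBP), CAAAGTCCA (HNF4), AAGATGGC (YY1) and the longer motifs of HNF1 and NRF1 stood in no switched window, against 3.04%, 1.76%, 0.463%, 3.06%, 0.00498% and 1.34% of all. Matches were counted per motif, whether or not they overlapped those of another motif. The windows are few, and 4 of the PWK/PhJ-active windows belong to Ffar2 and share 1 segment.

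These promoter switches did not all set 1 strain apart from the rest. The Clec2h segment, 4200 bp of state 1 in CAST/EiJ and state 14 in PWK/PhJ, was mostly active in 1 of the other 7 strains and mostly silent in 6. The Zfp605 segment (2600 bp) was active in 5 of the 7, and that of Ccn6 (2200 bp) in all 7. The segment over Ace, the angiotensin-converting enzyme gene, was 1600 bp long and active in 5 of the 7. The segments over Gsdma3, of the pore-forming gasdermins, and Ccdc190 were silent in all 7 others. In the opposite direction the Ffar2 segment (3600 bp), the Pnpla5 segment (3200 bp) and the segment of Miox, which breaks down myo-inositol (2400 bp), were silent in all 7 others. The Epp13 (2800 bp) and Prxl2b (2000 bp) segments were active in all 7. The Rnf212 segment (1800 bp) was silent in all 7 as well. In these promoter segments, then, PWK/PhJ alone was silent at Ccn6, and CAST/EiJ alone was silent at Epp13 and Prxl2b. CAST/EiJ alone was active at Gsdma3 and Ccdc190, and PWK/PhJ alone was active at Ffar2, Pnpla5, Miox and Rnf212.

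Genome-wide, CAST/EiJ and PWK/PhJ had the same state in 81.2% of the bins and a different state in 2310187, or 18.8%. Cohen's kappa, the share of equal states corrected for what the state frequencies give by chance, was 0.523. That was the highest of the 8 pairs that include PWK/PhJ and the lowest of the 8 that include CAST/EiJ. The lead among PWK/PhJ pairs was slight, 0.5227 against 0.5219 for C57BL/6J with PWK/PhJ. By the percent of equal bins, C57BL/6J (81.9%) and DBA/2J (81.8%) were nearer to PWK/PhJ than CAST/EiJ was. Among all 36 pairs CAST/EiJ with PWK/PhJ ranked 8 from the lowest by kappa, and each lower pair included PWK/PhJ. Kappa varied from 0.478 on chromosome 15 to 0.561 on chromosome 19.

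Most of the disagreement lay between silent states. Swaps of state 13 with state 14 accounted for 55.3% of the differing bins, with 580467 bins in state 13 in CAST/EiJ and 14 in PWK/PhJ and 697856 the other way. The next exchange, of states 4 and 14, was lopsided: 225461 bins had state 4 in CAST/EiJ and 14 in PWK/PhJ, 2.98 times the 75712 bins of the reverse. Of the exchanges that took at least 1% of the differing bins, the most lopsided was that of states 9 and 14, with 73242 bins against 2160, a ratio of 33.9. States 1 and 2, both active, were also exchanged unevenly, with 52348 bins in state 1 in CAST/EiJ and 2 in PWK/PhJ against 19767. The exchange of states 6 and 8 ran the other way, with 3041 bins of state 6 in CAST/EiJ and 8 in PWK/PhJ against 18563. Direct exchange of state 1 with state 14 took 8213 and 5237 bins.

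**Figure D1:**
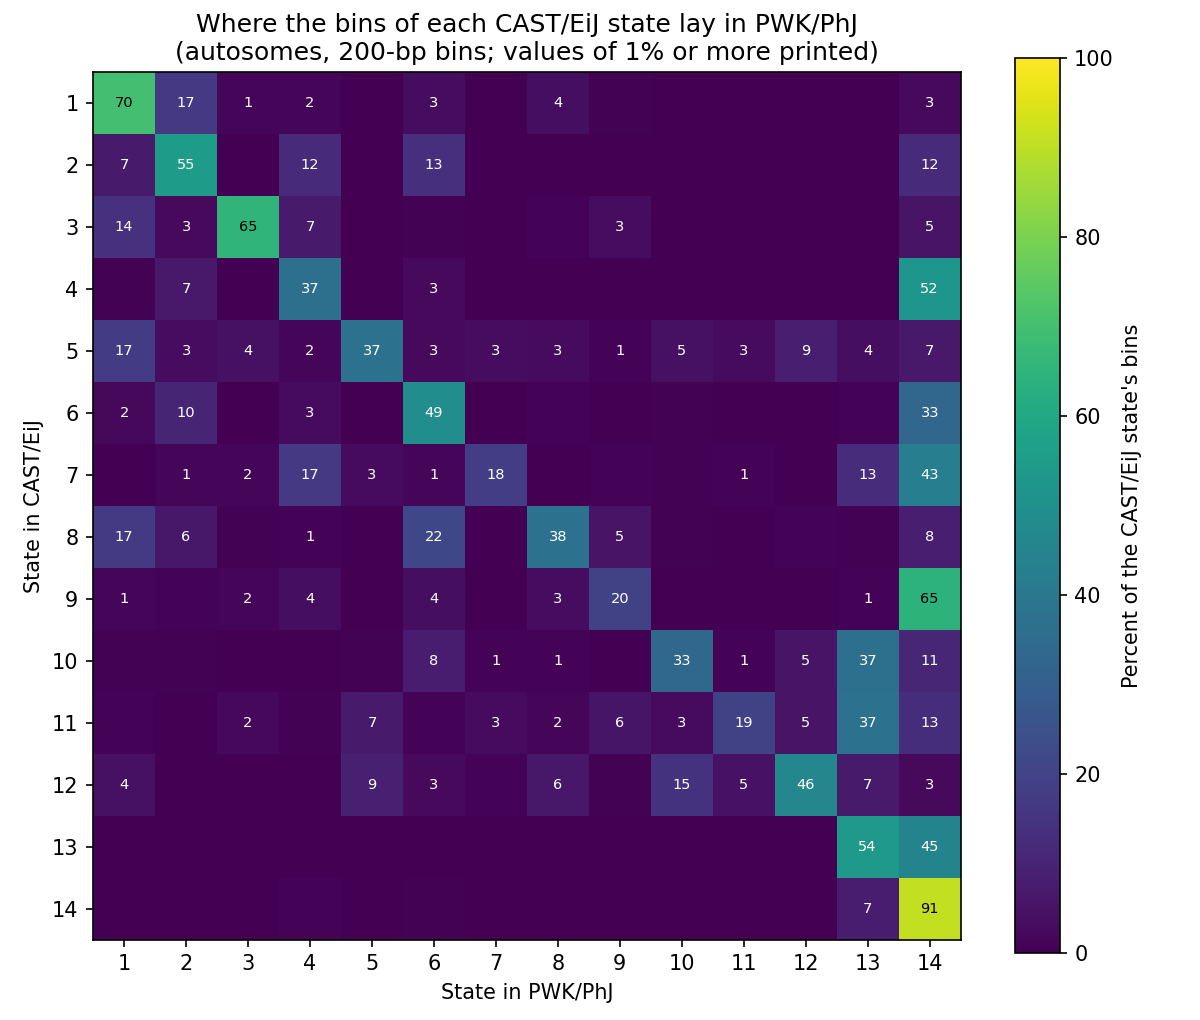
Percent of the bins of each CAST/EiJ state (rows, states 1 to 14) that lay in each PWK/PhJ state (columns), on the autosomes; colour runs from 0 to 100% and rows add to 100%. State 1 kept its number in 70.2% of bins and state 9 in 19.7%, and the last column, state 14, holds much of what states 4, 6, 7 and 9 lost.

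How often a state was kept depended on which strain was the starting point. State 1 of CAST/EiJ was state 1 in PWK/PhJ in 70.2% of its bins, and the reverse share was 79.0%. For state 3 the shares were 65.3% and 80.8%. For state 4 they were 36.7% and 54.2%, and for state 9 they were 19.7% and 66.9%. State 7, one of the rarest, was kept in 18% and 10.5%. The autosomes held 85.9 Mb of state 4 in CAST/EiJ and 58.2 Mb in PWK/PhJ, and 22.7 Mb against 6.69 Mb of state 9. State 4 in CAST/EiJ (3.49% of bins) was the highest of the 9 strains, and state 9 in PWK/PhJ (0.271%) the lowest, the other strains having between 0.549% and 1.59%. States 13 and 14 together covered 86.7% of the bins in CAST/EiJ and 89.0% in PWK/PhJ, states 4 to 12 covered 7.97% and 5.90%, and states 1 to 3 covered 5.30% and 5.07%.

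**Figure D2:**
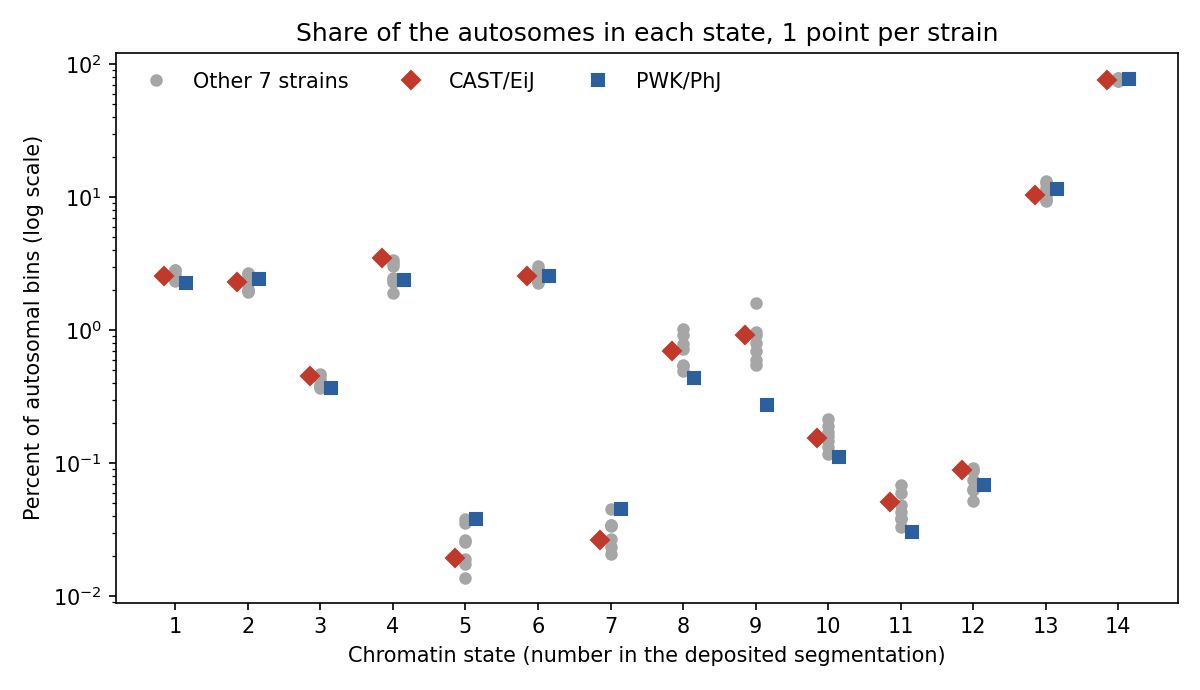
Percent of autosomal bins in each of the 14 states (log axis), with 1 point per strain: diamonds for CAST/EiJ, squares for PWK/PhJ, grey circles for the other 7 strains. PWK/PhJ lies below every other strain in state 9, at 0.271%, and CAST/EiJ lies highest in state 4, at 3.49%.

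Between classes, 76.6% of the active bins of CAST/EiJ were active in PWK/PhJ, 16.6% were intermediate and 6.87% were silent. Of the active bins of PWK/PhJ, 80.1% were active in CAST/EiJ and 4.23% were silent. A full switch from active to silent was thus the smallest outcome in both directions, with 8.96 Mb and 5.28 Mb. Intermediate bins switched more: 429408 bins were intermediate in CAST/EiJ and silent in PWK/PhJ, and 163921 the other way.

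Full switches of at least 1 kb covered 3.70 Mb on the CAST/EiJ-active side and 2.28 Mb on the PWK/PhJ-active side. Among the 72 ordered pairs of strains, the 2435 CAST/EiJ-active segments ranked 2, after 129S1/SvImJ active against PWK/PhJ silent with 3054. C57BL/6J against PWK/PhJ followed with 2434. The 1447 PWK/PhJ-active segments ranked 29. Against all 8 other strains, PWK/PhJ had 12962 segments active there and silent elsewhere and 18864 silent there and active elsewhere, a ratio of 0.687, the lowest of the 9 strains. For CAST/EiJ the numbers were 15728 and 12916, a ratio of 1.22. The excess of CAST/EiJ-active segments was spread over the genome: they outnumbered PWK/PhJ-active segments on 18 of the 19 autosomes. The ratio was highest on chromosome 14, with 98 against 35 segments (2.80), and lowest on chromosome 3, with 115 against 119 (0.966).

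**Figure D3:**
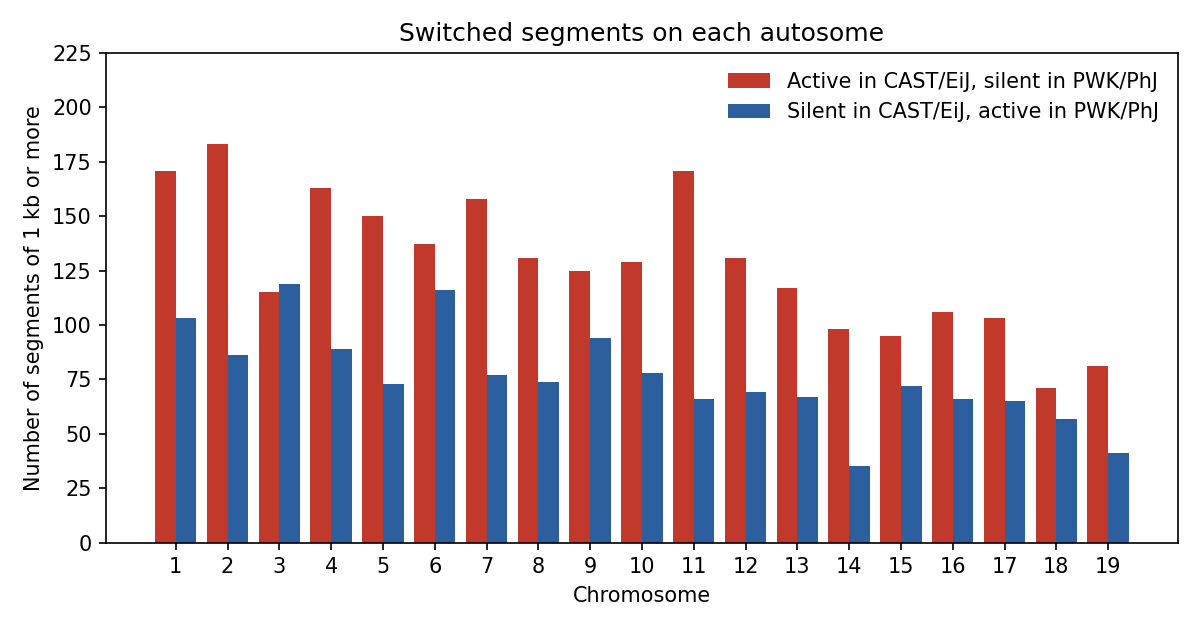
Number of switched segments of 1 kb or more (vertical axis) on each autosome (horizontal axis), with a bar for CAST/EiJ-active and a bar for PWK/PhJ-active segments. The CAST/EiJ-active bar is the taller one on every chromosome except chromosome 3, where the counts are 115 and 119.

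Switched segments were short. The median was 1200 bp on the CAST/EiJ-active side and 1400 bp on the PWK/PhJ-active side, and 785 and 426 segments were exactly 1000 bp long. Just below the threshold, 1208 and 679 stretches measured 800 bp. At least 2 kb was reached by 443 and 309 segments and at least 4 kb by 38 and 25. The longest CAST/EiJ-active segment, 10000 bp at chr7:136928001-136938000, lay in Mgmt. The longest PWK/PhJ-active segment, 10600 bp at chr7:66490601-66501200, lay in no protein-coding gene. It was state 1 in PWK/PhJ and state 14 in CAST/EiJ, and 5 of the other 7 strains were mostly silent there and none mostly active.

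In the active strain, state 2 was the most frequent state of 71.5% of CAST/EiJ-active and 69.9% of PWK/PhJ-active segments. State 1 led in 23.3% and 28.3%, and state 3 in 5.13% and 1.80%. The silent strain was in state 14 over the whole segment in 98.4% and 95.9% of cases, so state 13 took little part in full switches although it led the exchanges between silent states. The active domain around a segment was bordered by state 4 at 64.9% and 58.7% of its edges, by state 6 at 16.9% and 25.4%, and directly by state 14 at 5.67% and 9.50%. In 52.0% and 49.9% of the segments the whole active domain was silent in the other strain, and in 74.4% and 80.3% the other strain had no active bin anywhere in it. The nearest active bin of the silent strain lay at a median of 4400 bp and 8000 bp. The number of segments equalled 6.32% of the 38516 active domains of at least 1 kb in CAST/EiJ, and 3.95% of the 36619 in PWK/PhJ.

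The switched segments lay away from the ends of genes. The annotation table used for positions gives no strand, so starts and ends of genes are counted together here. A gene end lay inside 3.53% of CAST/EiJ-active and 2.70% of PWK/PhJ-active segments. Among whole active domains of 1000 to 2000 bp of all kinds, with a median of 1400 bp, the shares were 14.8% in CAST/EiJ and 17.3% in PWK/PhJ. The median distance from the middle to the nearest gene end was 17174 bp and 22902 bp for the segments, against 13146 bp and 13294 bp for those domains. A segment can be part of a longer active domain (median 2000 bp), and gene ends in the rest of it were not counted. Segments and whole domains are therefore not measured alike. Segments led by state 3 came closest, with medians of 3157 bp and 4170 bp, but numbered only 125 and 26. A gene span covered part of 61.6% of CAST/EiJ-active and 53.6% of PWK/PhJ-active segments.

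The 7 strains outside the pair place each switch. At CAST/EiJ-active segments, none of the 7 was mostly active in 1180 (48.5%), and all 7 were mostly active in 259 (10.6%). In 507 (20.8%) all 7 were mostly silent, so that CAST/EiJ alone was active. In the 259, PWK/PhJ alone was silent. At PWK/PhJ-active segments, none was active in 681 (47.1%) and all 7 were active in 214 (14.8%). All 7 were silent in 373 (25.8%), where PWK/PhJ alone was active. The remaining segments, 40.9% and 38.1%, had between 1 and 6 active strains. Longer segments were more often active in all 7 others: on the CAST/EiJ side 8.79% of those of 1000 bp, 12.8% of those of 2000 to 3800 bp and 26.3% of the 38 of 4000 bp or more. On the PWK/PhJ side the shares were 11.7%, 19.7% and 24.0% of 25. Switches with the silent strain alone were thus more frequent among long segments, with only 10 and 6 such segments in the longest class. Switches with the active strain alone were not counted by length.

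The side taken by the other strains at switched bins differed with the direction. Where CAST/EiJ was active, the 7 strains were active at 25.7% (A/J) to 34.6% (129S1/SvImJ) of the bins and silent at 39.3% (129S1/SvImJ) to 44.9% (DBA/2J). Where PWK/PhJ was active, they were active at 27.7% (A/J) to 35.0% (129S1/SvImJ) and silent at 45.0% (NZO/HlLtJ) to 48.9% (WSB/EiJ). Each of the 7 was thus more often silent than active in both directions, nearer to PWK/PhJ in the one and to CAST/EiJ in the other. The pooled values below weight the directions by their unequal numbers of bins. Pooled, the 7 strains had the class of CAST/EiJ at 36.4% ± 1.69 of the switched bins and that of PWK/PhJ at 38.4% ± 1.18 (SD, n = 7 strains). The class of CAST/EiJ was shared least in A/J (34.3%) and most in 129S1/SvImJ (38.8%). The difference was -2.04 percentage points ± 2.51, with 129S1/SvImJ and WSB/EiJ above 0 and 5 strains below. It did not pass an exact permutation test by sign flips, two-sided (p = 0.109, adjusted p = 0.109 over the 2 tests made). The more numerous CAST/EiJ-active bins, at which each of the 7 was more often silent, pull this difference towards PWK/PhJ. Its sign thus depends on the weight of each direction, and the test cannot tell which strain of the pair the others resembled. Over all autosomal bins, kappa with CAST/EiJ was 0.585 ± 0.0140 and with PWK/PhJ 0.504 ± 0.0187. Kappa was higher with CAST/EiJ in each of the 7 strains, by 0.0809 ± 0.0118, and the same exact permutation test gave p = 0.0156, the smallest that 7 strains allow, and an adjusted p of 0.03125. All 7 differences in each test use the same single CAST/EiJ and PWK/PhJ segmentations, and the 7 strains have ancestors in common. The p-values therefore describe the spread over these strains only, and they do not show that CAST/EiJ and PWK/PhJ mice differ.

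**Figure D4:**
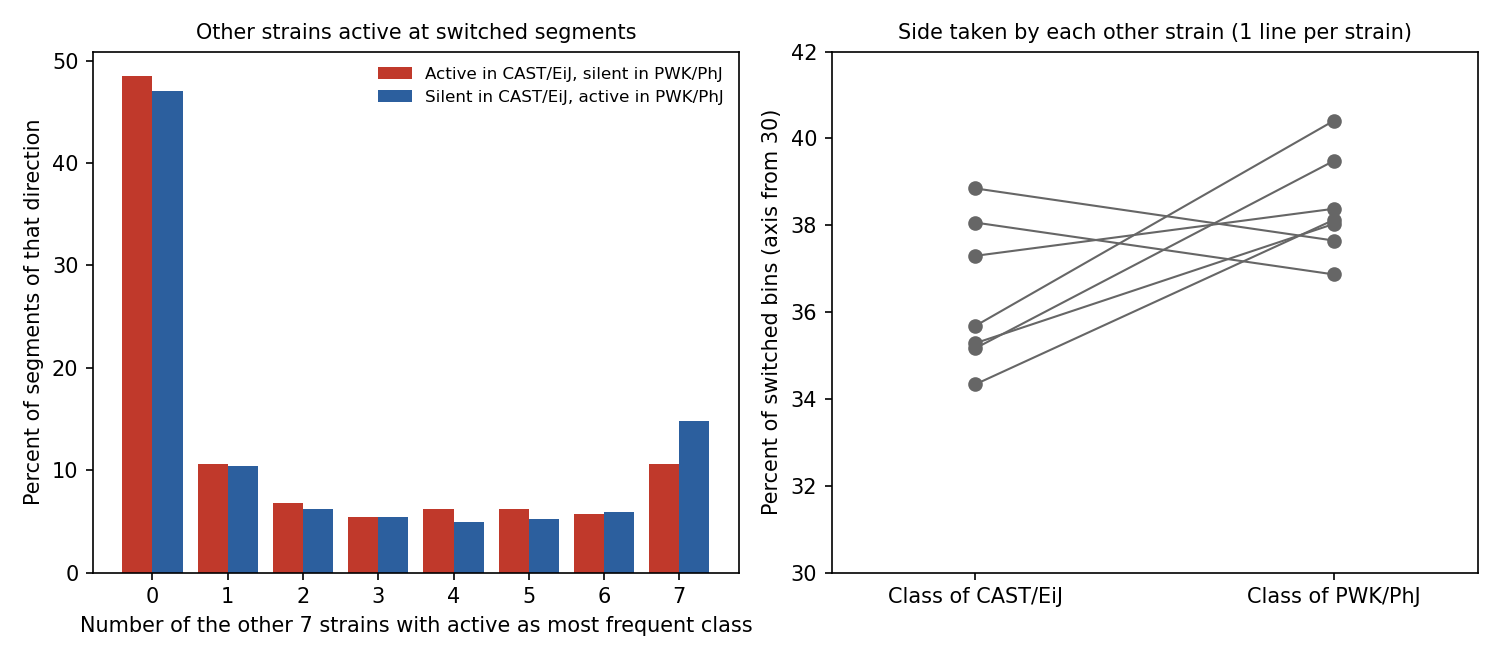
Left, percent of switched segments of each direction (vertical axis) by the number of the other 7 strains whose most frequent class there was active (horizontal axis); right, percent of switched bins in which each other strain had the class of CAST/EiJ or of PWK/PhJ, with 1 line per strain. The left bars are tallest at 0 strains (48.5% and 47.1%) and rise again at 7 (10.6% and 14.8%). On the right, with the directions pooled by their unequal numbers of bins, 5 of the 7 lines slope up.

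CAST/EiJ-active segments touched the span of 1065 protein-coding genes, 5.15% of all, and PWK/PhJ-active segments touched 574, or 2.78%. Touched genes were long, with medians of 65228 bp and 80775 bp against 17491 bp for all genes, and a long gene offers more room for a segment. To touch a gene says nothing of its expression, which was not measured here. Segments of both directions lay in 71 genes, 0.344% of all, whose median length was 148875 bp. Arhgap26, a GTPase-activating protein gene of 774669 bp on chromosome 18, held 5 CAST/EiJ-active and 2 PWK/PhJ-active segments. Wwox, a tumour suppressor gene of 913078 bp on chromosome 8, held 2 and 4.

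The longest CAST/EiJ-active segments in genes included a locus where CAST/EiJ stood apart and loci where PWK/PhJ did. The segments are active in all bins in CAST/EiJ and in none in PWK/PhJ by their definition, and the values of the other 7 strains place them. In Mgmt, which encodes a repair protein that removes alkyl groups from guanine, the 10000 bp segment had active bins in 0 to 18% of its length in the 7 strains, with a median of 0%. The gene held 4 CAST/EiJ-active segments in all. In the 10000 bp segment CAST/EiJ alone was largely active.

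PWK/PhJ was the odd strain in the longest segments of several other genes. In Cmip, an adaptor protein gene, 5000 bp at chr8:117437001-117442000 were active to 96.0% to 100% in the 7 strains. In Hcfc2, of the host cell factors, 6000 bp at chr10:82789001-82795000 were active to 80.0% to 100%. In Pde4d, a cyclic AMP phosphodiesterase gene, the 4800 bp segment was active to 45.8% to 87.5%, with a median of 66.7%. Pde4d also held a PWK/PhJ-active segment of 1600 bp. The 6600 bp shared by Lrsam1, a ubiquitin ligase gene, and Niban2 were active to 57.6% to 75.8%. In Spsb4, an adaptor gene of ubiquitin ligases, 6 strains had 92.0% to 100% and NZO/HlLtJ had 12.0%. In Galm, which encodes galactose mutarotase, and in Gse1, the values were graded, with medians of 11.5% and 23.3%. Dop1b lay between, from 44.4% to 85.2%.

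Among PWK/PhJ-active segments the longest in a gene was one of 7000 bp in Iigp1, an interferon-inducible GTPase gene that acts against intracellular parasites (chr18:60387201-60394200). The 7 other strains were active over 71.4% to 100% of it, with a median of 91.4%, so CAST/EiJ stood apart with state 14. Iigp1 held 6 PWK/PhJ-active segments and has close relatives nearby, between which reads can be shared. Nedd4l, a ubiquitin ligase gene that acts on sodium channels, had 6000 bp (chr18:65029601-65035600) active to 86.7% to 100% in the others. Nab1, a co-repressor gene, Rnf144b, a ubiquitin ligase gene, and Sema5b, a guidance molecule gene, had 83.3% to 100%, 76.2% to 100% and 85.7% to 100%. In the longest segments of these 5 genes the silent state of CAST/EiJ was the exception. Elsewhere in its span Nedd4l held a CAST/EiJ-active segment of 1200 bp. In Dntt, which encodes an enzyme of antigen receptor diversity, the others ranged from 43.3% in A/J to 93.3%, with a median of 86.7%, and 6 of the 7 were mostly active.

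Other PWK/PhJ-active segments were active in few or some of the other strains. In Cldn18, a tight junction gene, 6000 bp were active to 73.3% in NZO/HlLtJ and to 0% in the other 6. Clstn2 showed the same strain, with 95.7% in NZO/HlLtJ and 0% in the other 6. In the body of Pnpla5, 4200 bp were active to 0 to 19%. Wide ranges were seen in Pdss2, an enzyme gene of coenzyme Q synthesis (32.1% to 82.1%), and Rab27a, a vesicle transport gene (23.8% to 85.7%).

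**Figure D5:**
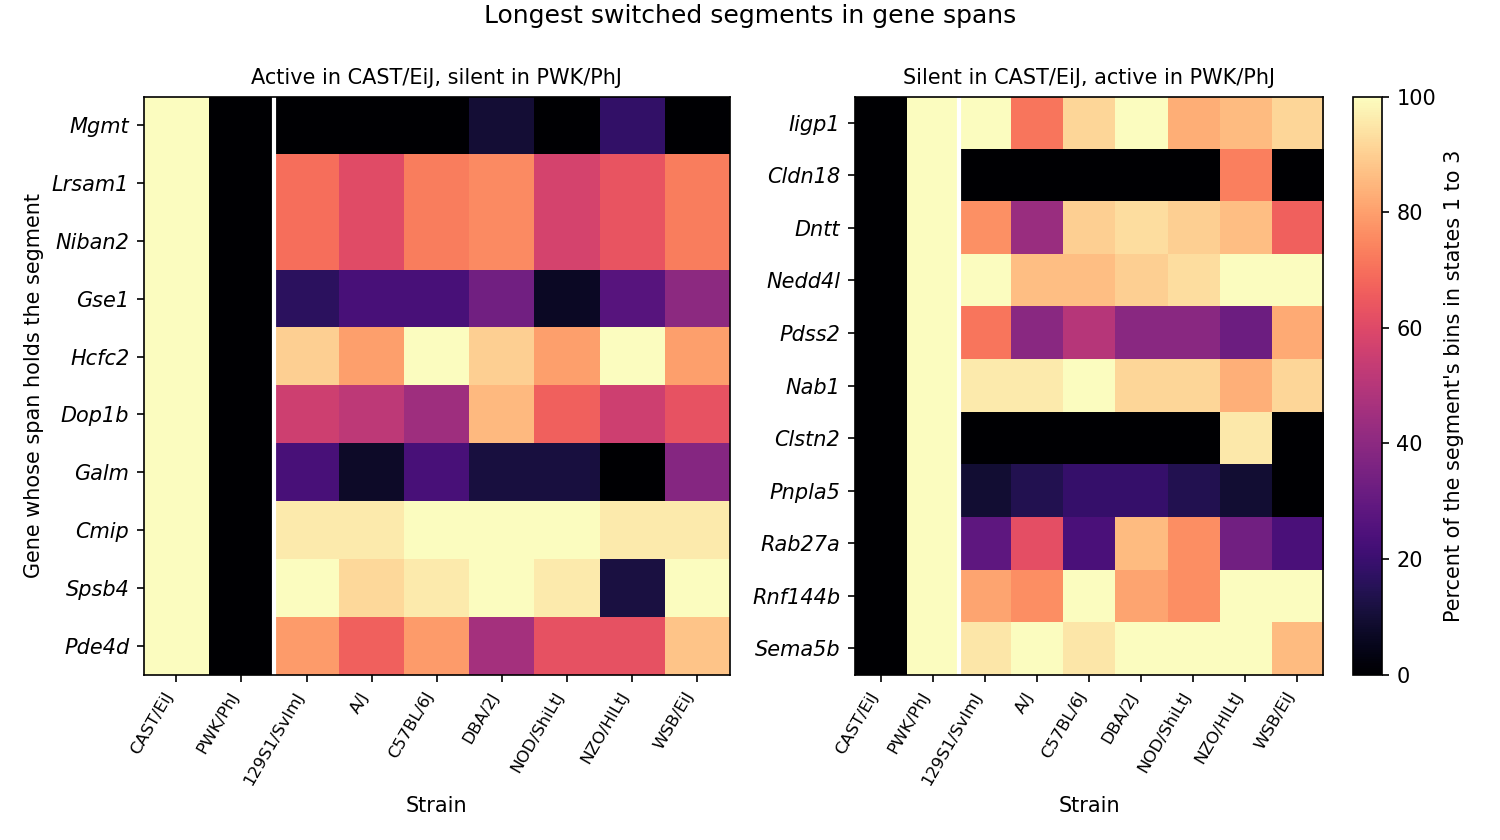
Percent of bins in states 1 to 3 (colour, 0 to 100%) within the longest switched segment of the named genes of each direction (rows), in each of the 9 strains (columns); CAST/EiJ and PWK/PhJ, left of the white line, are 100 or 0 by definition. Dark rows on the right of the line, such as Mgmt and Pnpla5, show segments largely active in 1 strain, and bright rows, such as Cmip and Nedd4l, show segments silent in 1 strain.

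Switched segments were unevenly spread, and whether they were clustered beyond the spread of active bins was not tested. Of 2473 autosomal windows of 1 Mb, 57.1% held at least 1 segment, with a mean of 1.57 over all windows, and 18 windows held 10 or more. The fullest, chr12:103000001-104000000, held 17 CAST/EiJ-active and 3 PWK/PhJ-active segments and touched Serpina11, of the serpin protease inhibitors, Ifi27, an interferon-induced gene, and Ppp4r4. None of the other 7 strains was mostly active in 14 of the 20. Active bins covered 214.6 kb of this window in CAST/EiJ and 174 kb in PWK/PhJ. Over all autosomes they covered 5.30% and 5.07% of the bins. Across the 18 fullest windows, active bins in CAST/EiJ ranged from 16.6 kb to 223.6 kb. The window chr6:116000001-117000000 held 13 CAST/EiJ-active segments and none of the reverse, with Tmcc1 touched, and 8 of the 13 were active in at least 4 of the other strains.

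The opposite excess was seen in 4 windows with 10 or more PWK/PhJ-active segments. The window chr15:75000001-76000000 held 11 against 3, and chr6:122000001-123000000, which touched Mug2, of the murinoglobulin protease inhibitors, held 11 against 1. In chr3:67000001-68000000, with Rarres1 and Gfm1, there were 11 against 0, and active bins covered 16.6 kb in CAST/EiJ and 56.4 kb in PWK/PhJ. In chr18:60000001-61000000, around Iigp1, there were 10 against 1, and all 11 were active in at least 4 of the other strains.

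Counts over lists of liver genes ran from none to several. Of 20 hepatocyte landmark genes and 18 genes of cell maintenance found on the autosomes, none was touched in either direction, and none of 22 genes of glucose metabolism, 28 of the urea cycle and amino acid breakdown, or 25 of the acute phase. These lists are to be read against 5.15% and 2.78% of all genes, and against gene lengths: the hepatocyte landmark genes have a median of 9410 bp. In bile acid metabolism, where liver enzymes turn cholesterol into bile acids, 3 of 26 genes were touched by CAST/EiJ-active segments and 2 by PWK/PhJ-active ones. Cyp39a1, an oxysterol hydroxylase gene, held 6 CAST/EiJ-active segments, the longest 2800 bp and active in 3 of the other strains. Akr1d1, a bile acid reductase gene, and Abcg5, a sterol exporter gene, held 1 each, active in 0 of the 7. Slco1b2, a bile acid uptake carrier gene, held a PWK/PhJ-active segment of 1600 bp, active in 6, and Cyp7b1, a hydroxylase gene, held 2, the longer active in 0.

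In the list of growth hormone, insulin, leptin and related signalling, 4 of 24 genes (16.7%) were touched by CAST/EiJ-active segments and 0 by the reverse. Of all genes, 5.15% and 2.78% were touched. The list has a median gene length of 30825 bp, against 17491 bp for all genes. Esr1 and Thrb, both touched, span 393645 and 380873 bp. Whether the list differs from genes of like length was not tested. The segments in Esr1, the oestrogen receptor gene (2800 bp), and Stat5b, which encodes a transcription factor of growth hormone signalling (2600 bp), were active in all 7 others and silent in PWK/PhJ alone. Those in Thrb, a thyroid hormone receptor gene (1600 bp), and Lepr, the leptin receptor gene (1000 bp), were active in 1 and 0 of the 7. Of 20 transcription factors of hepatocyte identity, Nr1i2, the xenobiotic receptor PXR, held a CAST/EiJ-active segment of 3800 bp, active in all 7 others. Hnf4a, a master regulator of hepatocyte genes, held 2 PWK/PhJ-active segments of up to 1000 bp. That at chr2:163516401-163517400 was active in 4 of the 7. Within the longest switched segment of Esr1, Stat5b and Nr1i2, PWK/PhJ was thus the only strain not mostly active. The rest of these genes was not compared in this way.

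In fatty acid oxidation 3 of 28 genes (10.7%) were touched by CAST/EiJ-active and 0 by PWK/PhJ-active segments, against 5.15% and 2.78% of all genes. The touched genes were Bdh1, a ketone body enzyme gene, Ppargc1a, a coactivator gene of mitochondrial metabolism, and Cpt2, which encodes a carnitine acyltransferase. Their longest segments measured 2400, 1600 and 1000 bp, and the genes span 36605, 661605 and 19608 bp. Of 25 genes of fatty acid and triglyceride synthesis, Mlxipl, a carbohydrate-sensing transcription factor gene, was touched on the CAST/EiJ side, and Acaca, the acetyl-CoA carboxylase gene, and Pnpla3, a lipase gene, on the PWK/PhJ side. Among 27 complement genes, Hc held a CAST/EiJ-active segment and C4bp and C6 held PWK/PhJ-active ones. Of 25 cholesterol genes, Srebf2, the regulator of sterol synthesis, and Lss, the lanosterol synthase gene, held 1 segment each, in opposite directions. Of 33 interferon-stimulated genes and immune GTPases, Iigp1 alone was touched.

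Gene families with many close copies are uncertain, since reads can be shared between copies. Of 79 cytochrome P450 genes of families 1 to 4, which oxidise drugs and steroids, 4 were touched on each side (5.06%). Cyp2b9 held a CAST/EiJ-active segment of 2000 bp, and Cyp2b13, in the same window of chromosome 7, a PWK/PhJ-active one of 4000 bp that was active in 6 of the 7 others. Of 22 UDP-glucuronosyltransferases 10 were touched, all on the CAST/EiJ side. Of these, 9 are overlapping transcription units of the Ugt1a locus that share 1 segment of 3000 bp at chr1:88217401-88220400, active in 6 of the 7 others, so the count stands for 2 segments. Mup5 and Mup20, of the major urinary proteins, held CAST/EiJ-active segments of 3800 and 3000 bp. Mup20 held a PWK/PhJ-active one of 1000 bp as well.

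Of 376 solute carriers, 23 (6.12%) and 15 (3.99%) were touched. Slc1a2, a glutamate carrier gene of pericentral hepatocytes, held 3 PWK/PhJ-active segments, the longest 4000 bp, active in 1 of the 7 others. Of 388 zinc finger genes, 14 (3.61%) and 2 (0.515%) were touched. Of 48 ATP-binding cassette transporters 5 (10.4%) were touched in each direction, and their median length was 64841 bp. None of 1104 olfactory receptor genes, 39 Hox genes, 76 ribosomal protein genes or 57 clustered protocadherin genes was touched. The Hox, ribosomal protein and olfactory receptor genes are short, with medians of 3737, 3179 and 950 bp. The protocadherin spans are long, with a median of 90252 bp, and overlap each other.

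The remaining lists held few touched genes. On the CAST/EiJ side these were F5, of 22 clotting genes, Rora, of 19 clock genes, Snrpn, of 20 imprinted genes, and Tbx5, of 20 developmental regulators, whose segment of 1200 bp was active in all 7 others. Of 16 genes of iron handling, Bmp6, a signal for the iron hormone hepcidin, held 2 CAST/EiJ-active segments and Steap3, a ferrireductase gene, held a PWK/PhJ-active one of 2000 bp. The longest segment of each was active in all 7 others, so PWK/PhJ alone was silent in that of Bmp6 and CAST/EiJ alone in that of Steap3. Of 62 serpins, 4 were touched on the CAST/EiJ side (6.45%) and 0 on the PWK/PhJ side. Of 21 sulfotransferases, 2 were touched on each side, and of 27 alcohol and aldehyde dehydrogenases, 2 and 3.

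Of the marker genes of other liver cell types, Stab2 and Oit3, of sinusoidal endothelial cells, were touched on the CAST/EiJ side and Erg and Stab1 on the PWK/PhJ side, out of 20. Stab2, a scavenger receptor gene, held 6 CAST/EiJ-active segments, the longest 2200 bp and active in 5 of the 7 others. Csf1r, of macrophages, was the only one of 19 Kupffer cell and leukocyte markers touched, on the CAST/EiJ side. Of 20 stellate and bile duct markers, Spp1 was touched on the CAST/EiJ side and Hgf on the PWK/PhJ side. Of 919 autosomal microRNA hairpins in RefSeq's table, 6 were touched, Mir7003 on the PWK/PhJ side and Mir7087, Mir6928, Mir6940, Mir6947 and Mir6956 on the CAST/EiJ side. Mir6928 overlapped its segment only in part, and each of these segments also touched a protein-coding gene. For scale, 0.364% of all autosomal bins were active in CAST/EiJ and silent in PWK/PhJ and 0.214% the reverse. Whether hairpins were touched more often than other places was not tested.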

How the data were processed

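Chromatin immunoprecipitation sequencing was done on 13 libraries per strain in 9 strains, and the deposited files hold 1 segmentation per strain with all libraries of a strain combined. The deposited values are a category, the number of 1 of 14 states per interval in column 4, and are neither a count nor a signal. Build mm10, FastQC 0.11.5 and MACS 1.4.2 are listed in the submitters' processing notes, without their roles. The segmentation tool, read depth and mark content of the states are not given in the sources used here.

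Intervals were written as bins of 200 bp. Bins were compared between CAST/EiJ and PWK/PhJ by state and by class, and runs of at least 5 bins were kept. Genes and promoters came from RefSeq tables of GRCm38.p6, the same assembly, whose promoter table was used for 18 autosomes. It is not complete, so promoter counts cover 16457 genes. The chromosome 18 promoters were not analysed here. The labels sort samples by strain, and a strain is 1 value in each test. Adjustment followed Benjamini and Hochberg.

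The members, gene lists, classes and tests were chosen with earlier results of these data known. Named genes are the 12 per direction with the longest segment in their span (no Gm, Rik or LOC symbols), the 10 per direction whose promoter window lay inside the longest segments, and touched members of the lists. Some of them are not reported here. Spata22, Rnf212, Nox4, Ccdc190, Prxl2b and the genes in 1 Mb windows or touched in both directions were singled out after their values were seen. The motifs were also chosen afterwards. Alternatives covered segment length, class limits, bridging, smoothing, gene windows, gene sets and left-out strains. The computation ran in Python 3.11.15 with pandas 2.3.3, numpy 2.4.6 and scipy 1.17.1, figures were drawn with matplotlib 3.10.9, and the code was tested on simulated segmentations with planted switches.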

Additional observations from a re-analysis of the deposited data

Results flagged for a closer look

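Of 22 sets of values over the 9 strains (shares of states and classes and numbers of segments), 1 had a strain far from the rest. In WSB/EiJ state 13 covered 74.7% of the X chromosome, against 84.3% in PWK/PhJ, the next lowest, a gap of 0.672 of the whole range, above Dixon's 95% critical value. About 1 in 20 such sets is marked by chance. On the autosomes neither CAST/EiJ nor PWK/PhJ was marked in any set.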

How the results depend on the processing

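Counts of segments rest on the length limit and on what is called active. CAST/EiJ-active and PWK/PhJ-active segments numbered 5714 and 3365 at a minimum of 600 bp, 443 and 309 at 2 kb, 593 and 328 with states 1 and 3 as active, and 19410 and 7831 with states 1 to 4 as active. Genes touched numbered 1967 and 1134 at 600 bp, 277 and 155 at 2 kb, 317 and 154 with states 1 and 3, and 4837 and 2389 with states 1 to 4. Within 1 kb of either gene end they numbered 205 and 85. Under each of these the CAST/EiJ-active count was the larger. State 14 alone as silent, bridging of 1 bin, removal of single-bin segments, genes of all kinds and exclusion of Gm and Rik symbols moved no count by more than 1.5 times.

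Kappa of the pair, 0.523, was 0.223 over bins outside state 14 in at least 1 strain, 0.60 with a match within 1 bin, 0.526 in 1000-bp bins, 0.628 with states 13 and 14 merged and 0.594 with the X added. The excess of kappa with CAST/EiJ over PWK/PhJ, 0.0809, ranged from 0.0782 to 0.0838 when each strain was left out. With 6 strains the smallest possible p is 0.03125, so the adjusted p of the exact permutation test was 0.0625 in each case. It was 0.0268 with states 13 and 14 merged, positive in 7 of 7 strains. The difference at switched bins, -2.04 points, ranged from -2.58 to -1.59 when each strain was left out and stayed below 0 under the other alternatives run, without passing the test. None of these alternatives gave the directions equal weight, on which the sign depends, so they do not settle that sign.

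No paired analysis was possible because each segmentation merges the 3 mice of its strain. With no read depth or value per mouse, a segment without marks and a segment without mapped reads cannot be told apart, and the spread between mice is unknown. Differences between the CAST/EiJ or PWK/PhJ genome and the reference were not analysed here.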

Other observations

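The X chromosome was kept out of the counts above. There CAST/EiJ and PWK/PhJ had the same state in 92.7% of the bins, with a kappa of 0.725. State 13 covered 85.6% of the X in CAST/EiJ and 84.3% in PWK/PhJ, and the other 7 strains ranged from 74.7% in WSB/EiJ to 89.0% in C57BL/6J, with a median of 88.5%. Both strains of the pair thus lay within that range. Active bins covered 0.158% and 0.249%. The X held 2 CAST/EiJ-active and 10 PWK/PhJ-active segments of at least 1 kb, whereas CAST/EiJ-active segments were the more numerous on the autosomes. Whether the balance on X differs from that on the autosomes was not tested.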
